A study of Mus musculus with 2 samples.

Results

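The SOCS family of mouse comprises Cish and Socs1 to Socs7, and all 8 genes were found by symbol among the 51912 gene rows of the deposited counts. The data were 2 RNA-seq libraries of mouse embryonic fibroblasts (MEFs), which are connective tissue cells grown out of embryos, on a C57BL/6 background. UKS cells were Usp16-/- and KS cells were Usp16+/+, and each group gave 1 library. The lines had been immortalized with SV40T, a viral antigen that inactivates p53 and the RB proteins, and had then been infected with adenovirus carrying Cre (Ad-Cre), which deleted the floxed Usp16 alleles in UKS. The sources used here do not give age, passage or whether a line stems from 1 embryo or 1 clone. The comparison asks which transcripts differ in fibroblasts that lack Usp16, a deubiquitinase of histone H2A.

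SOCS proteins are the feedback brakes of cytokine signalling. Cytokine receptors activate JAK kinases, these phosphorylate STAT transcription factors, and STAT factors then switch on several SOCS genes, whose proteins bind the receptor or the JAK through an SH2 domain. A second domain, the SOCS box, recruits elongins B and C and a cullin and so marks bound partners for degradation, while SOCS1 and SOCS3 also block the JAK active site. CISH and SOCS2 are best known for limiting STAT5 signals such as that of growth hormone, and SOCS4 to SOCS7, which carry long N-terminal regions, for acting on receptor tyrosine kinases and insulin signalling.

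The family was split between the libraries. Cish, Socs1 and Socs3 were higher in UKS, while Socs2, Socs4, Socs5 and Socs6 were lower and Socs7 was near equal. Cish was the member past 2-fold upward and Socs4 and Socs6 were those past 2-fold downward, the other 5 lying between. All 8 members were measured, that is they averaged 1 CPM or more over the libraries, and among all 13015 measured genes 5.81% were past 2-fold upward in UKS and 10.7% past it downward. Values are CPM (counts scaled to library size, with TMM factors) or, where genes are compared with each other, CPM per kilobase of transcript. The log2 ratio is log2((UKS + 1)/(KS + 1)) in CPM, which understates the difference of low genes, and past 2-fold means at or beyond 1 or -1 on that scale. With 1 library per group no test was possible and no p-value is given. The intervals in brackets are exact 95% intervals and cover counting error only. In bulk RNA, fewer cells that express a gene and less of its RNA per cell cannot be told apart.

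Promoters are shown for the 3 members that stood higher in UKS and for Socs4, a member that stood lower. No window is shown for Socs2, Socs5, Socs6 or Socs7. Socs6 was past 2-fold downward like Socs4 and was left out, so Socs4 alone stands for the lower members. The matches therefore cannot be set against direction across the family. For 4 of the 8 genes 300 bases were taken from RefSeq (build GRCm38.p6), 250 before the annotated start and 50 from it on. The limit to these 4 is one of what was taken here and is no statement on what RefSeq holds. Positions count from 1 at the start and from -1 before it. Capitals mark matches to TTCNNNGAA, the STAT binding element known as GAS, which reads the same on both strands, and to GAAANNGAAA or its reverse complement TTTCNNTTTC, the core of the interferon-stimulated response element. The windows were chr9:107296409-107296708 on the plus strand for Cish, chr16:10785487-10785786 on the minus strand for Socs1, chr11:117969317-117969616 on the minus strand for Socs3 and chr14:47276670-47276969 on the plus strand for Socs4. Each is given 5′ to 3′.
Cish: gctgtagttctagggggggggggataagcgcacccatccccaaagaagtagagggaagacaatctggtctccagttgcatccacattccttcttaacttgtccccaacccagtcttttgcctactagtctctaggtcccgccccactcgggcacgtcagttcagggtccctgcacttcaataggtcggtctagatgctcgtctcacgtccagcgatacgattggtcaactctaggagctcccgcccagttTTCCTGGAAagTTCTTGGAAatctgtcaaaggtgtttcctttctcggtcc
Socs1: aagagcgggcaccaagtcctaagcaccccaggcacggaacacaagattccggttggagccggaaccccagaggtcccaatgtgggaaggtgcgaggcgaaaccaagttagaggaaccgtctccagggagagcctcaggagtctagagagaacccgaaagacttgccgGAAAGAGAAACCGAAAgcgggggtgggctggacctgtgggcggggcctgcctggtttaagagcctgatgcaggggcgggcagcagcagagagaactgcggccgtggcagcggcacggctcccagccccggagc
Socs3: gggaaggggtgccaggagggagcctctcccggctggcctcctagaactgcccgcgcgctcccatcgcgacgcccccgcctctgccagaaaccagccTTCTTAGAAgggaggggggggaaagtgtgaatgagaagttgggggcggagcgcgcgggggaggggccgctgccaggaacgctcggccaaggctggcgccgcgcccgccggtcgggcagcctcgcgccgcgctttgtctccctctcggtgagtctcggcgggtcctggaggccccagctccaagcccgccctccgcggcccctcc
Socs4: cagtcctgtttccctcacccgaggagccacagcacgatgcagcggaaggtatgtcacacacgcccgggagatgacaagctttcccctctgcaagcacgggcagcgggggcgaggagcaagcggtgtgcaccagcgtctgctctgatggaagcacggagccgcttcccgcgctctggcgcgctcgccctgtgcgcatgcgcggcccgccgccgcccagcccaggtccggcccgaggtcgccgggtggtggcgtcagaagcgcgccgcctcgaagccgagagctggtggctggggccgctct
Cish held 2 GAS matches, TTCCTGGAA at positions 1 to 9 and TTCTTGGAA at 12 to 20. Socs3 held 1, TTCTTAGAA at -154 to -146. Socs1 held no GAS match but 2 matches of the interferon core, GAAAGAGAAA at -83 to -74 and GAAACCGAAA at -77 to -68, which overlap each other. Socs4 held neither. Of 32851 RefSeq promoter windows 8.3% held at least 1 GAS match and 0.457% at least 2, and 3.44% held at least 1 match of the interferon core. A match describes these letters and not binding.

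Before the members are described, the libraries need a word. The counts summed to 23205734 in UKS and 26561600 in KS, so that 1 count equalled 0.0428 CPM in UKS and 0.0379 CPM in KS. Usp16, the targeted gene, had 459 counts in UKS and 1195 in KS, 2.30-fold lower [2.07 to 2.57], and a count for the whole gene cannot tell which exons the UKS reads fell in. Xist had 6998 counts in UKS and 1 in KS, and the Y-linked Ddx3y 1 count in UKS and 1511 in KS. The lines thus differed in sex-linked transcripts as well as in Usp16. These 2 differences, and any other between the lines, cannot be told apart here. All 11 fibroblast markers examined were measured, with summed levels of 21498 CPM in UKS and 20088 CPM in KS. That sum rested on Fn1, and the other 10 summed to 6917 CPM in UKS and 11093 CPM in KS. The fibroblast markers had a median log2 ratio of -0.46, and 3 of the 11 (Thy1, Pdgfra and Sparc) were past 2-fold downward in UKS. Blood cell markers summed to 70.3 CPM in UKS and 26.0 CPM in KS, of which the lipopolysaccharide co-receptor Cd14 made up 62.3 CPM in UKS and 18.8 CPM in KS. Cd68 had 113 counts in UKS and 154 in KS, and Coro1a had 59 in UKS and 24 in KS. The pan-leukocyte marker Ptprc had 1 count in UKS and 2 in KS, and the blood markers Adgre1, Cd3e, Itgam and Tyrobp had none in either. Endothelial markers summed to 62.4 CPM in UKS and 27.0 CPM in KS, mostly Flt1 (45.7 CPM in UKS and 15.6 CPM in KS). Egfl7 had 12.8 CPM in UKS and 7.42 CPM in KS, while Pecam1 had 6 counts in UKS and 3 in KS. Epithelial markers summed to 13.2 CPM in UKS and 22.1 CPM in KS, mostly Krt19 (11.4 CPM in UKS and 16.0 CPM in KS). Krt18 had 18 counts in UKS and 78 in KS and Dsp 8 in UKS and 59 in KS, while Krt5 and Krt14 were at 0 in both. The part of such cells in the SOCS values was not tested.

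Cish (ENSMUSG00000032578; GRCm38 chromosome 9, 107296026 to 107302784, plus strand) encodes the founding member, an inhibitor of STAT5 activation that is itself induced by STAT5. It had 395 counts (16.9 CPM) in UKS and 176 counts (6.67 CPM) in KS, 2.54-fold higher [2.12 to 3.05]. Its log2 ratio of 1.22 [0.99 to 1.46] was the highest of the family, and 95.9% of measured genes had a lower ratio. Cish overlaps the antisense gene Gm17041, which had no counts in either library, and the pseudogene Gm17040, which had 4 counts in UKS and 0 in KS, so few reads were assigned to these neighbours, though reads of overlapping genes cannot be told apart without strand.

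Socs2 (ENSMUSG00000020027; chromosome 10, 95385362 to 95417180, minus strand), the other STAT5-linked member and a negative regulator of growth hormone signalling, went the other way. It had 146 counts (6.25 CPM) in UKS and 248 counts (9.39 CPM) in KS, 1.50-fold lower [1.22 to 1.86], a log2 ratio of -0.52. The ratio of Cish to Socs2 counts within a library does not depend on scaling. It was 2.71 in UKS and 0.710 in KS, a 3.81-fold difference [2.88 to 5.04]. Per unit of length Cish stood at 2.11 times the level of Socs2 in UKS and at 0.553 times in KS. The order on that scale depends on the length taken, since with all annotated exons merged Cish stood above Socs2 in UKS (2.64 and 0.656 CPM per kb) and in KS (1.04 and 0.986 CPM per kb). The KS values with merged exons were close, and no counting intervals were computed for them. The shift in the Cish to Socs2 count ratio was the largest among the 4 pairs of close relatives.

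Socs1 and Socs3, the members that inhibit JAK kinases directly, were both higher in UKS, within 2-fold on the log2 scale. Socs1 (ENSMUSG00000038037; chromosome 16, 10782240 to 10785536, minus strand), the brake on interferon signalling, had 507 counts (21.7 CPM) in UKS and 295 counts (11.2 CPM) in KS, 1.94-fold higher [1.68 to 2.25], with a log2 ratio of 0.90. Socs3 (ENSMUSG00000053113; chromosome 11, 117966079 to 117970047, minus strand), the brake on gp130 cytokines such as IL-6 and LIF, had 1447 counts (62.0 CPM) in UKS and 1017 counts (38.5 CPM) in KS, 1.61-fold higher [1.48 to 1.74], with a log2 ratio of 0.67. Neither counting interval reached equal levels. The ratio of Socs1 to Socs3 counts was 0.350 in UKS and 0.290 in KS, a 1.21-fold difference [1.02 to 1.43], so this pair moved nearly in step.

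Socs4 and Socs5, a pair of close relatives linked to EGF receptor signalling, were both lower in UKS. Socs4 (ENSMUSG00000048379; chromosome 14, 47276931 to 47296102, plus strand) gave 471 counts (20.2 CPM) in UKS and 1169 counts (44.3 CPM) in KS, 2.20-fold lower [1.97 to 2.45], with a log2 ratio of -1.10. Socs5 (ENSMUSG00000037104; chromosome 17, 87107679 to 87137839, plus strand) gave 2379 counts (101.9 CPM) in UKS and 3825 counts (144.9 CPM) in KS, 1.42-fold lower [1.35 to 1.50], with a log2 ratio of -0.50. As counted, Socs4 differed more than its relative: the ratio of Socs4 to Socs5 counts was 0.198 in UKS and 0.306 in KS, 1.54-fold lower [1.37 to 1.74].

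Socs6 and Socs7, which bind insulin receptor substrates and other adaptors, did not differ alike as counted. Socs6 (ENSMUSG00000056153; chromosome 18, 88665224 to 88927481, minus strand) had 1559 counts (66.8 CPM) in UKS and 3658 counts (138.6 CPM) in KS, 2.08-fold lower [1.96 to 2.20], with a log2 ratio of -1.04. Socs7 (ENSMUSG00000038485; chromosome 11, 97362551 to 97398542, plus strand) gave 757 counts (32.4 CPM) in UKS and 944 counts (35.8 CPM) in KS, 0.907 of the KS level [0.823 to 0.999], with a log2 ratio of -0.14. The Socs7 interval ended at the edge of equal levels, so its difference was hardly detectable at this depth. The ratio of Socs6 to Socs7 counts was 2.06 in UKS and 3.88 in KS, 1.88-fold lower [1.68 to 2.11].

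**Figure D1:**
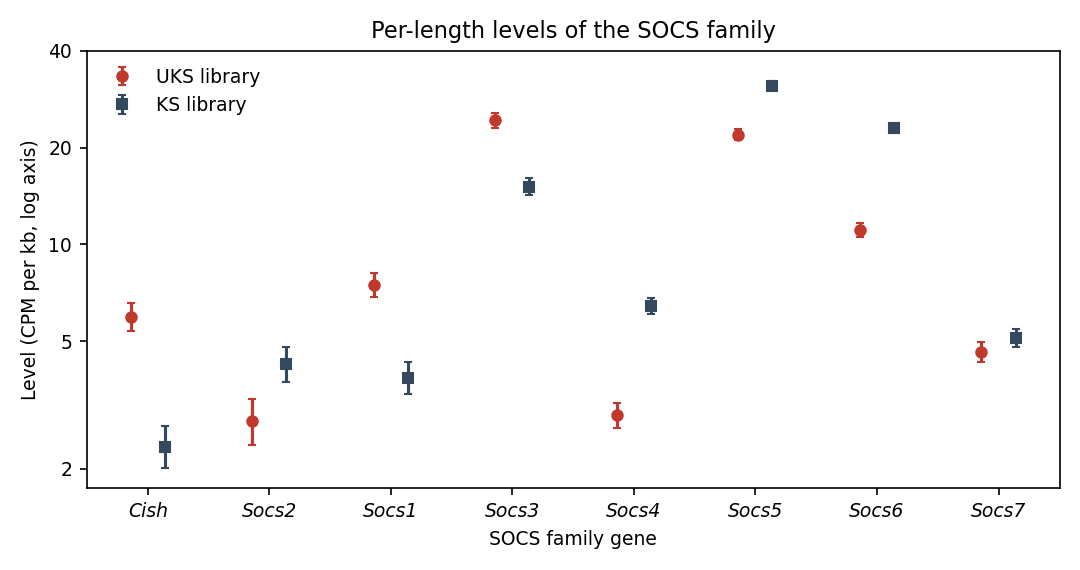
Level of each SOCS gene per kilobase of its longest protein-coding transcript (CPM per kb, log axis) in the UKS library (circles) and the KS library (squares), 1 library each, with exact 95% Poisson intervals that cover counting error only. Cish, Socs1 and Socs3 stand higher in UKS, and Socs2, Socs4, Socs5 and Socs6 stand lower, while the Socs7 intervals overlap.

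Per unit of length the leading member was not the same in the libraries. In UKS Socs3 led with 24.3 CPM per kb, ahead of Socs5 with 21.9, Socs6 with 11.1, Socs1 with 7.47, Cish with 5.94, Socs7 with 4.62, Socs4 with 2.93 and Socs2 with 2.81 CPM per kb. In KS Socs5 led with 31.2 CPM per kb, ahead of Socs6 with 23.0, Socs3 with 15.1, Socs4 with 6.44, Socs7 with 5.10, Socs2 with 4.23, Socs1 with 3.84 and Cish with 2.34 CPM per kb. Counting intervals of neighbours in these orders overlapped for Socs4 and Socs2 in UKS, and for Socs7 and Socs2 and for Socs2 and Socs1 in KS. With these lengths Cish stood above Socs7, Socs4 and Socs2 in UKS but last in KS.

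The family total differed less than its makeup. The levels per length of the 8 members summed to 81.0 CPM per kb in UKS and 91.2 CPM per kb in KS. Cish, Socs1 and Socs3 made up 46.5% of that sum in UKS and 23.3% in KS. Socs5 and Socs6 made up 27.1% and 13.7% in UKS, against 34.2% and 25.2% in KS. These shares take the longest coding transcript as the length of each gene. With all annotated exons merged, Socs3 still led in UKS (21.4 CPM per kb) and Socs5 in KS (22.6 CPM per kb), but Socs1 stood above Socs6 in UKS (7.47 and 5.88 CPM per kb) and Socs3 above Socs6 in KS (13.3 and 12.2 CPM per kb). Cish then stood above Socs2 alone in either library, below Socs7 and Socs4 in UKS as well. Counting intervals were not computed with merged exons, so close neighbours in these orders may not differ beyond counting error.

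Read against the transcriptome, the counts of members past 2-fold were small. With 1 and 2 of 8 genes past 2-fold, against 5.81% and 10.7% of all measured genes, a single gene more or less would alter the share of the family on either side. The median log2 ratio was -0.32 for the family and 0.03 for all measured genes. The log2 intervals of Cish, Socs1, Socs4 and Socs6 each included the 2-fold line, so counting error alone could put these 4 on either side of it.

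**Figure D2:**
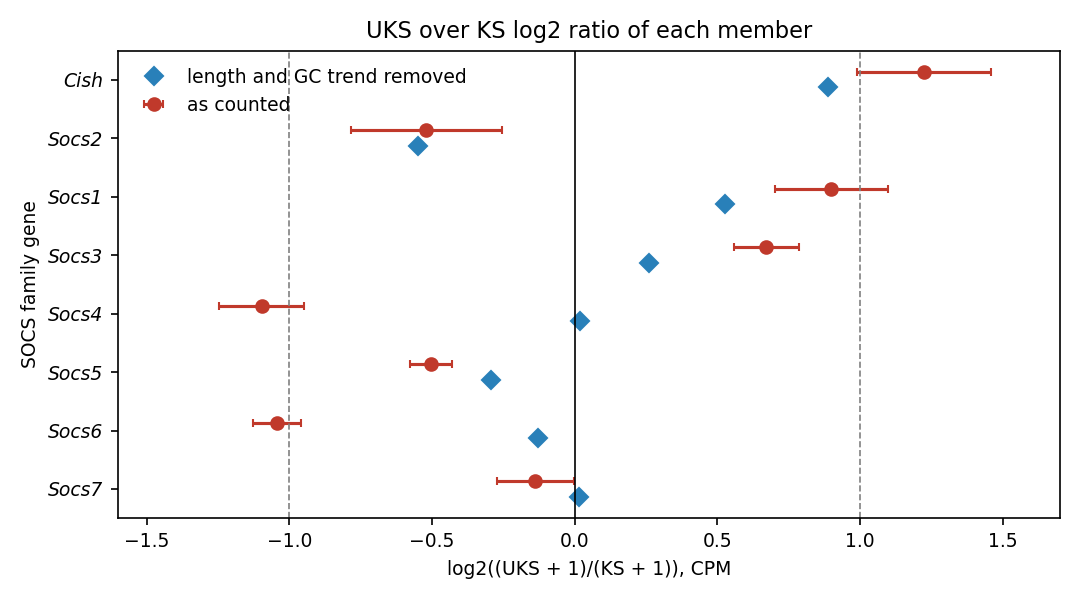
Log2 ratio of UKS over KS for each SOCS gene (horizontal axis), as counted (circles, exact 95% counting intervals) and after the trend with transcript length and GC content was subtracted (diamonds, no interval). Dashed lines mark 2-fold, which Cish (1.22), Socs4 (-1.10) and Socs6 (-1.04) pass as counted and no member passes with the trend removed.

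The direction of the members ran with the base composition of their transcripts. Cish, Socs1 and Socs3 had GC contents of 56.4%, 58.8% and 58.7% and lengths of 2850, 2908 and 2552 nt. Socs4 and Socs6 had GC contents of 38.5% and 39.9% and lengths of 6877 and 6036 nt. Socs2 (47.5%, 2222 nt), Socs5 (47.8%, 4648 nt) and Socs7 (53.8%, 7015 nt) lay between in GC content, and Socs2 was the shortest of all 8 although it was lower in UKS. The same held across all genes, where the tenth with the lowest GC content (median 39.8%) had a median log2 ratio of -0.81 and the tenth with the highest (59.9%) of 0.40.

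**Figure D3:**
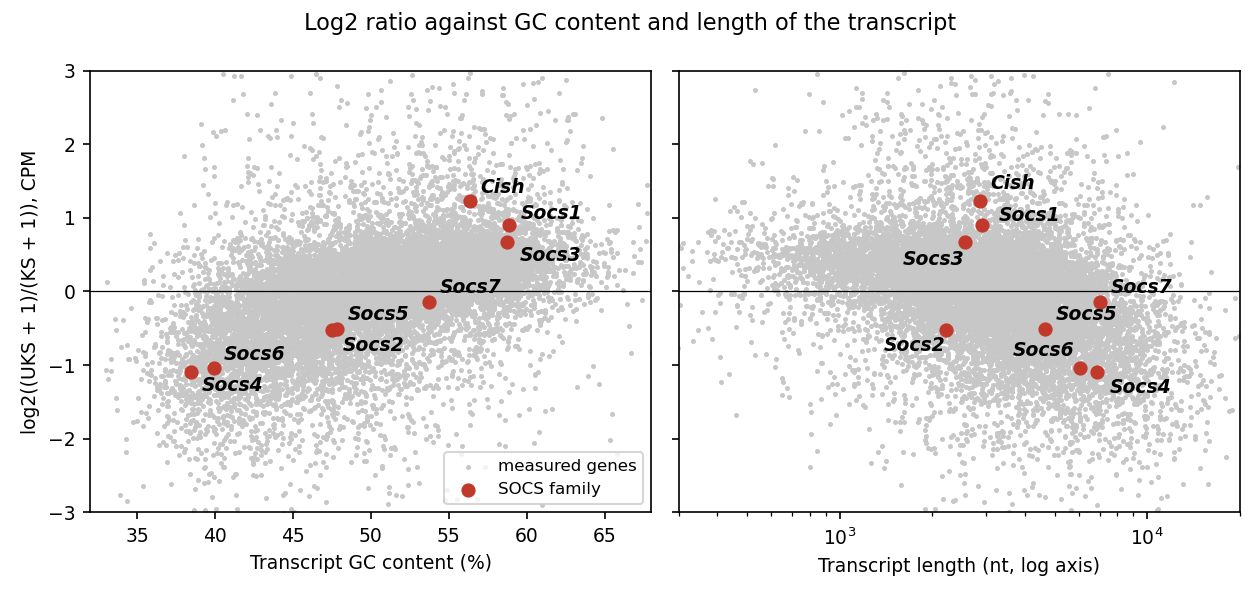
Log2 ratio of UKS over KS (vertical axis) against transcript GC content (left, %) and transcript length (right, nt, log axis) for measured genes (grey) and the 8 SOCS genes (red, named). The members higher in UKS lie at the GC-rich end and Socs4 and Socs6 at the GC-poor end, and 104 of 12997 genes lie outside the left panel and 110 outside the right.

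A robust regression on length and GC content gave the ratio typical of a transcript like each member. It was 0.34 for Cish, 0.37 for Socs1, 0.41 for Socs3, -1.11 for Socs4 and -0.91 for Socs6, and for 7 of the 8 genes it had the sign of the measured ratio. Socs2 was the exception, with a typical ratio of 0.03. With this trend subtracted the log2 ratio was 0.89 for Cish, 0.53 for Socs1, 0.26 for Socs3, -0.29 for Socs5, -0.13 for Socs6, and 0.02 for both Socs4 and Socs7. Socs2 kept -0.55. Socs4, lower as counted, therefore stood level with transcripts of its length and GC content. No member was then past 2-fold, against 5.51% of genes higher and 4.94% lower, and the family median was 0.02. Usp16, the targeted gene, had a log2 ratio of -1.16 as counted and -0.88 with the trend removed. The gap between the log2 ratios of Cish and Socs2 was 1.74 as counted and 1.44 after this step, while that between Socs4 and Socs5 was -0.59 before it and 0.31 after it.

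The 3′ untranslated regions of the members also differed. ATTTA, the pentamer of AU-rich elements that shorten the life of many cytokine-induced mRNAs, occurred 17 times in Socs4 (5182 nt), 10 times in Socs6 (4019 nt), 5 times in Socs7 (5184 nt) and 4 times in Socs5 (2595 nt). It occurred 4 times in Socs3 (1474 nt), 3 times in Cish (1087 nt), 2 times in Socs2 (1163 nt) and not at all in Socs1 (1993 nt). The median measured coding gene had 2 in 1210 nt. Socs4 and Socs6 held the highest numbers, which are not scaled to the length of the region.

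Genes around the family were examined by role. For comparison with each list, 5.81% of all measured genes were past 2-fold upward in UKS and 10.7% past it downward. Once the trend was removed these shares were 5.51% and 4.94%. Some ligands that induce SOCS genes were far higher in UKS and others near level. Of 19 ligands 7 were measured, with 4 past 2-fold upward in UKS, none past it downward and a median log2 ratio of 1.81 (1.69, again with 4 higher, once the trend was removed). Csf3 and Il6 counted as measured through their UKS level alone, and the median was 0.17 over the ligands with a count in either library when no filter was set. With a filter of 5 CPM it was 0.18, and 2 ligands were past 2-fold upward. Lif, the gp130 cytokine leukaemia inhibitory factor, had 3383 counts in UKS and 421 in KS, 9.09-fold higher [8.21 to 10.1]. Il11, another gp130 cytokine, had 566 counts in UKS and 145 in KS, 4.41-fold higher [3.67 to 5.33]. Csf3, the granulocyte growth factor, had 229 counts in UKS and 0 in KS, at least 86.3-fold higher if KS is set to the floor of 3 counts. The fourth was Il6 (133 counts in UKS and 24 in KS), named after its value was seen, and the most abundant ligand per length, the macrophage growth factor Csf1, was 1.10-fold higher. Clcf1 (783 counts in UKS and 777 in KS) and Ctf1 (145 counts in each) were close to level. Osm, Ifng, Il4, Il10, Il13 and Epo had no counts in either library, which at a floor of 3 counts in each allows levels of up to 0.128 CPM in UKS and 0.114 CPM in KS.

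Receptors that SOCS proteins act on were divided. Of 27 receptors 20 were measured, with 1 past 2-fold upward in UKS, 4 past it downward and a median log2 ratio of 0.08 (0.30, with 1 higher and 2 lower, once the trend was removed). The hepatocyte growth factor receptor Met was 3.28-fold lower [2.95 to 3.64], the PDGF receptor Pdgfra 2.86-fold lower [2.73 to 2.99] and the growth hormone receptor Ghr 2.37-fold lower [2.20 to 2.56]. Ghr lay within 2-fold with the trend removed, at a log2 ratio of -0.57. Il6st, which encodes gp130 and is the docking site of SOCS3, had 336 CPM in UKS and 340 CPM in KS, and Pdgfrb was 1.39-fold higher. The receptor past 2-fold upward was Il13ra1 (log2 ratio 1.18), named after its value was seen.

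JAK kinases and STAT factors were mostly within 2-fold, as were most measured genes. Of 11 genes 10 were measured, with 1 past 2-fold upward in UKS, none past it downward and a median log2 ratio of 0.26 (0.35, again 1 higher, with the trend removed). STAT5 factors induce Cish and Socs2. Of their genes, Stat5a was 2.85-fold higher [2.55 to 3.20], from 1063 counts in UKS and 421 in KS. Stat5b, named after its value was seen, was 1.16-fold higher [1.06 to 1.27], from 1013 counts in UKS and 989 in KS. Jak3 was 1.80-fold higher and Jak2, a target of SOCS1 and SOCS3, 1.80-fold lower. With the trend removed the log2 ratio was 0.53 for Jak3 and -0.34 for Jak2. Stat2, among the most abundant of these genes per length, was 1.17-fold lower.

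Genes known to be induced through STAT factors leaned upward with Cish, Socs1 and Socs3. Of 20 such genes 18 were measured, with 10 past 2-fold upward in UKS, none past it downward and a median log2 ratio of 1.18 (0.78, with 8 higher, once the trend was removed). The haptoglobin gene Hp had 1500 counts in UKS and 105 in KS, 16.2-fold higher [13.2 to 19.9]. Lbp, the lipopolysaccharide-binding protein, had 250 counts in UKS and 4 in KS, 70.7-fold higher [27.3 to 261]. Lbp counted as measured through its UKS level alone, and with no filter on low counts the list median was 1.06. The IkB-like factor Bcl3 was 5.59-fold higher [4.76 to 6.58]. Timp1 and Ccl2, the most abundant per length, were 2.50-fold and 2.32-fold higher. Many of these genes also respond to NF-kB, so the list is not specific to STAT factors. It was also drawn up with the inflammatory pattern of these libraries already known.

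**Figure D4:**
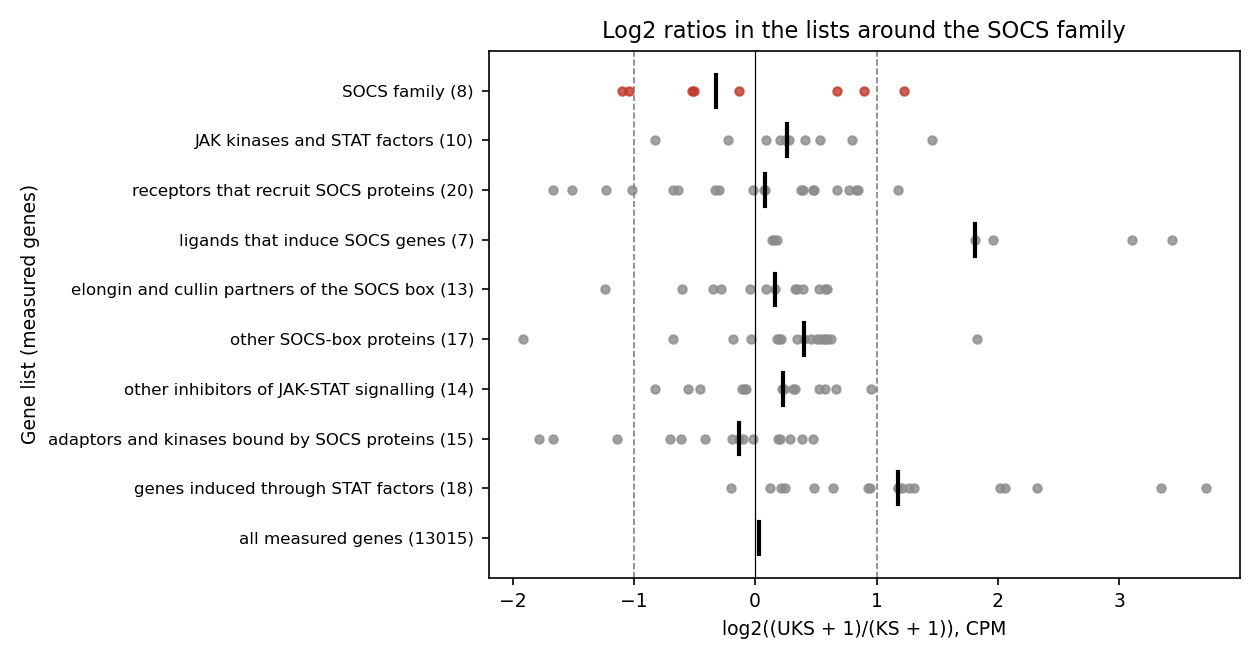
Log2 ratio of UKS over KS (horizontal axis) of each measured gene in the SOCS family (red) and in the 8 lists around it (grey), with the number of measured genes in brackets. Vertical bars are medians of measured genes as counted, 1.81 for ligands (0.17 with no filter on low counts), 1.18 for STAT-induced genes and -0.32 for the SOCS family (0.02 with the trend removed), and dashed lines mark 2-fold.

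Most genes of the degradation machinery that the SOCS box recruits lay within 2-fold, as did most measured genes. Of 13 measured elongin, cullin and ubiquitin-transfer genes none was past 2-fold upward in UKS and 1 was past it downward, and the median log2 ratio was 0.16 (0.07, with none past 2-fold, once the trend was removed). The lower gene was Cul5, the cullin that works with SOCS proteins, which was 2.40-fold lower [2.20 to 2.62] as counted and had a log2 ratio of -0.26 with the trend removed. Cul2 was 1.53-fold lower, the ring subunit Rbx1 1.52-fold higher, the elongin Elob 1.45-fold higher and the cullin modifier Nedd8 1.50-fold higher. With the trend removed the log2 ratio was 0.04 for Cul2, 0.54 for Rbx1, -0.06 for Elob and 0.07 for Nedd8.

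Other SOCS-box genes and other brakes on JAK and STAT were mostly within 2-fold, again like most measured genes. Of 29 further SOCS-box genes 17 were measured, with 1 past 2-fold in each direction and a median log2 ratio of 0.40 (0.24 with the trend removed, with the same 2 counts). Spsb1, a SPRY domain member, was 3.68-fold higher [3.34 to 4.05], Asb4, an ankyrin repeat member, was 5.35-fold lower [3.83 to 7.64] and the abundant Wsb1 and Wsb2 were 1.60-fold lower and 1.16-fold higher. Of 14 measured phosphatases, PIAS proteins and other inhibitors none was past 2-fold in either direction, with a median of 0.23. The phosphatase Ptpn1 (1.96-fold higher) and the interferon-induced Usp18 (1.59-fold higher) stood highest among those named, and the ubiquitin ligase Cbl was 1.79-fold lower, with Ptpn11 at 1.08-fold lower. With the trend removed the log2 ratio was 0.78 for Ptpn1, 0.40 for Usp18 and 0.01 for Cbl.

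Partners that SOCS proteins bind included the insulin receptor substrates. Of 17 such adaptors and kinases 15 were measured, with none past 2-fold upward in UKS, 3 past it downward and a median log2 ratio of -0.13 (-0.15, again 3 lower, with the trend removed). Irs1 was 3.60-fold lower [3.20 to 4.07], Irs2 2.25-fold lower [2.06 to 2.45] and the RAS GTPase activator Rasa1, a partner of SOCS3, 3.21-fold lower [3.04 to 3.39]. Each of these 3 stayed past 2-fold with the trend removed, unlike Socs4 and Socs6. The most abundant per length, Pik3r2 and Rela, were 1.22-fold and 1.39-fold higher.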

How the data were processed

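Total RNA of the 2 lines was made into libraries with a TruSeq kit, per the labels' protocols. The submitters' processing notes name HISAT2, StringTie and the build GRCm38.p5, without role or version. The counting program, the annotation and any use of strand are not stated in these sources. The values deposited by the authors are expected counts, which are estimated and carry no depth scaling, and of these 21.5% of the genes above 0 in UKS and 23.1% in KS were not whole. All were rounded, and the 8 SOCS genes had whole counts. A further engineered alteration that both lines share is not reported here, nor are results for some genes that the naming rule takes in.

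TMM scaling (edgeR 4.0.16, R 4.3.3) gave factors of 1.01 for UKS and 0.994 for KS. The log2 ratio used 1 CPM as pseudocount, and genes averaging 1 CPM or more counted as measured. No test was made. Intervals were Clopper-Pearson for ratios, conditional for ratios of ratios and Poisson for levels (scipy 1.17.1), all at 95%. Coordinates, lengths and GC content came from GENCODE M21 (GRCm38), which held 51633 of the 51912 gene identifiers, using the longest protein-coding transcript. The trend was a Tukey biweight regression (statsmodels 0.14.6) with cubic terms in log2 length (held within 200 and 20000 nt) and in GC content (held within 35 and 65%), fitted without the listed genes. It also removes real differences that follow these properties, and its own error is not in any interval. The steps were tested on simulated counts with Poisson error, differences well past 2-fold, and either no trend or one linear in GC content. Removal of a trend with length was not tested in this way.

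The members, the 12 gene lists and the alternatives were chosen with earlier results of these data known. Named were the 8 members, Usp16, the 3 genes of each list outside the cell type markers with the largest absolute log2 ratio and the 2 most abundant per length, and the 3 genes of most similar pattern to Cish. Marker genes, Xist, Ddx3y and those marked so in the text were named outside that rule.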

Additional observations from a re-analysis of the deposited data

How the results depend on the processing

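The calls within the SOCS family held under 8 of the 9 other settings, the exception being removal of the length and GC trend. The settings of the filter and of rounding could not alter them. All 8 members averaged more than 5 CPM and had whole counts. With pseudocounts of 0.5 or 2 CPM, totals alone, DESeq2 1.42.0 size factors, upper quartile scaling, no filter, a filter of 5 CPM or counts not rounded, 1 member was higher and 2 were lower, and the family median lay between -0.35 and -0.28. With the trend removed, 0 members were higher and 0 lower, the family median was 0.017, Socs4 stood at 0.018 in place of -1.10, and 642 genes in place of 1396 were at least 2-fold lower, against 716 in place of 756 higher. Across the 8 other settings the log2 ratio of Cish ranged from 1.13 to 1.28, of Socs6 from -1.071 to -1.004 and of Socs7 from -0.17 to -0.10. Merging all annotated exons altered 10 of 16 levels per length by more than their counting interval, most for Socs2 (0.656 in place of 2.81 CPM per kb in UKS). No paired analysis was possible because each group has 1 library. For the same reason no library could be left out, and the depth limits only counting error and says nothing of variation between cultures.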

Other observations

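Most genes around the SOCS genes on the chromosomes lay within 2-fold between the libraries, as did most measured genes. For each member the 2 nearest measured genes on either side were taken, a choice made after the data were seen. Of these 32 neighbours 1 was at least 2-fold higher in UKS and 1 at least 2-fold lower, with a median log2 ratio of 0.12. The higher neighbour was Gch1, a gene of tetrahydrobiopterin synthesis, 87518 bases from Socs4, with 1074 counts in UKS and 412 in KS. The lower was Tmx3, 1582673 bases from Socs6, with a log2 ratio of -1.19 as counted and 0.01 with the trend removed. The closest neighbour of Cish, Mapkapk3, a kinase of the p38 pathway, had 666 counts in UKS and 638 in KS, and Clec16a, the closest to Socs1, had 981 in UKS and 966 in KS.

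By distance in log2(CPM + 1) over the 2 libraries, the named protein-coding genes closest to Cish among 11765 were Serinc2 (394 counts in UKS and 187 in KS, distance 0.076), Pnmal2 (409 in UKS and 165 in KS, distance 0.094) and Cnbd2 (419 in UKS and 169 in KS, distance 0.095). With 2 libraries this likeness says only that their levels were similar.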
